A study of Mus musculus with 60 samples.

Results

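The proximal piece of the mouse upper jaw (maxilla) was compared at embryonic day E13.5 with the same piece at E12.5, using the 3 arrays titled as proximal maxilla at each age, 6 of the 60 arrays in the series. The whole series covers maxilla and mandible, each cut into a distal and a proximal piece, on each day from E10.5 to E14.5. All groups are C57Bl/6 embryos, and the labels name no mutant allele and no treatment. Each array received 3 µg of total RNA from the piece. The labels give the tissue of these arrays as proximal bone, and the pieces are whole jaw tissue rather than sorted cells. Whether replicate arrays came from separate embryos or from a pool is not stated, so every p-value measures only the spread between arrays, which may be technical. The groups used below are 4 in number, proximal maxilla at E13.5 and at E12.5 and, beside them, distal maxilla at E13.5 and at E12.5, and all of them lie in labelled batch 2. Levels at E11.5 come from batch 3 and those at E14.5 from batch 2.

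The maxilla grows from the maxillary prominence of the first pharyngeal arch, whose mesenchyme comes from the neural crest, with muscle precursors and vessel lining from mesoderm and a covering of ectoderm. In these days mesenchymal cells condense and become osteoblasts, which lay down bone directly in membrane, or chondrocytes, which lay down cartilage. The maxillary branch of the trigeminal nerve enters the jaw from its proximal side, and its sensory neurons arise in the trigeminal ganglion behind the jaw.

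Signals are on the log2 scale, so a difference of 1 means a 2-fold change. Differences are E13.5 minus E12.5, each with its standard error (SE) from a limma fit of all 60 arrays. A gene counts as called, and is said to have risen or fallen, at a Benjamini-Hochberg adjusted p under 0.05 over 18193 genes. The arrays carry no detection call. A group mean no higher than 4.78, which is the largest 25th percentile among the arrays, is therefore taken as not shown to be present, and a fold against it is written as at least the fold over 4.78. The 3 arrays of a group lay close together, with a median SD over genes of 0.0854 at E13.5 and 0.0919 at E12.5. The lowest correlation between arrays of a group was 0.997 at E13.5 and 0.9965 at E12.5. Array medians over all probe sets except controls ran from 6.164 to 6.2 at E13.5 and from 6.136 to 6.17 at E12.5. With 3 arrays a group, the precision of each value is limited by that number.

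Over the day 4047 genes rose (22.2% of those tested) and 2486 fell (13.7%), and the median difference over all genes was -0.0067. Changes of at least 2-fold were mostly rises, in 440 genes (2.42%) against 124 that fell as far (0.682%). The arrays of the 2 ages did not overlap for 8421 genes (46.3%), and in 4949 (27.2%) E13.5 was the higher age. The split of small changes depended on scaling. Centring each array on the median of its 18193 genes, not of all its probe sets, moved every difference by -0.133. It gave 2594 genes higher and 5814 lower, and a repeated quantile normalization gave 3340 higher and 3754 lower. A gene is read from its probe set with the highest mean. With the mean of all its probe sets instead, 27 of 140 called values of named genes were smaller by over 1.5 times. Counts of members below are to be read against the shares over all genes.

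Most bone genes rose. Of 14 bone genes measured (of 18 listed), 11 rose and none fell, with a median difference of 1.37. Ibsp, which encodes bone sialoprotein of mineralizing matrix, had signals of 11.26, 10.87 and 11.04 in the E13.5 arrays, against 2.96, 3.29 and 3.15 in the E12.5 arrays. The E12.5 arrays all lay below the limit of detection used here, and the E13.5 arrays were among the bright signals of the array, at least 77.5-fold higher (difference 7.92 ± 0.29, adjusted p = 9.1e-27). As in any bulk sample, a gain in cells of a type and a gain in RNA per cell cannot be told apart.

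Panx3, a channel protein of osteoblasts and hypertrophic chondrocytes, had 8.73, 8.52 and 8.501 at E13.5, against 4.33, 4.37 and 4.44 at E12.5, and was at least 14-fold higher. Ifitm5, a membrane protein of osteoblasts, had 8.74, 8.65 and 8.83 at E13.5, against 5.86, 5.78 and 5.37 at E12.5. Its difference was 3.07 ± 0.18. Phex and Dmp1, which act in phosphate handling and matrix mineralization and are known from osteocytes, were also below 4.78 at E12.5. They were at least 4.83-fold and at least 3.01-fold higher at E13.5. The mineralizing enzyme gene Alpl rose by 1.54 ± 0.21 and the collagen gene Col1a1 by 1.30 ± 0.23. Sp7, which encodes the osteoblast transcription factor osterix, was already measurable at E12.5, with 6.97, 6.93 and 6.601, and had 8.30, 8.26 and 8.25 at E13.5 (difference 1.44 ± 0.16). Thus 4 bone genes of a tissue labelled as bone were not shown to be present at E12.5, while the osteoblast factor was. The 3 bone genes that were not called were Dlx3, Dlx5 and Smpd3, with differences of 0.21, 0.35 and 0.06. Sgms2, a sphingomyelin synthase gene with a known role in the human skeleton, is outside the bone list and rose by 3.63 ± 0.23.

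The promoter windows of Ibsp, Matn1 and Hba-x are shown as examples of a bone, a cartilage and a globin gene with a called change. They run from 250 bases before to 50 after the start of the gene, from RefSeq on GRCm38.p6, all on the plus strand and written 5′ to 3′. The Ibsp window lies at chr5:104299037-104299336, the Matn1 window at chr4:130944135-130944434 and the Hba-x window at chr11:32276350-32276649. Capitals mark matches to the motifs searched on both strands.
Ibsp: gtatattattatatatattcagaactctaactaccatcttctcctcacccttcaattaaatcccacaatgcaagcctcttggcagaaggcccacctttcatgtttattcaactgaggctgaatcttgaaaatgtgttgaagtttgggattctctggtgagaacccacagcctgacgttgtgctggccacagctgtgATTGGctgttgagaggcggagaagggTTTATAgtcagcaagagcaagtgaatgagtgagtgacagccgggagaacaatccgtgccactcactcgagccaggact
Matn1: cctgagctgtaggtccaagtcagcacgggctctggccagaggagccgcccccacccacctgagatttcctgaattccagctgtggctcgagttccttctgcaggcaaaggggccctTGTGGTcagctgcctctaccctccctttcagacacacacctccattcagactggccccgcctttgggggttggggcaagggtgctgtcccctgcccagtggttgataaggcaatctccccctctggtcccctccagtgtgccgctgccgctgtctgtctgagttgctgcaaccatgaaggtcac
Hba-x: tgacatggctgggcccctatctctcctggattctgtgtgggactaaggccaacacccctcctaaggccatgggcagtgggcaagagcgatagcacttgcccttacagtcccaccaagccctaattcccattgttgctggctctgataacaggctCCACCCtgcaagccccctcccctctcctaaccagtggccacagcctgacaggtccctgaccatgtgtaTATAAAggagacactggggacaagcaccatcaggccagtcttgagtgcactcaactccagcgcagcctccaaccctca
For Ibsp the capitals are a CCAAT and a TATAAA, both on the minus strand, at -54 and -28 from the start. CCAAT stands in 37.4% and TATAAA in 13.6% of the 32851 mouse promoter windows of this length. The Matn1 window holds TGTGGT, the core bound by Runx proteins, at -134, which 16.8% of windows hold, and no ACAAAG, a Sox motif found in 18.7%. The Ibsp window has no TGTGGT. The Hba-x window holds CCACCC at -96 and TATAAA at -28, on the plus strand. CCACCC stands in 31.5% of windows. AGATAA, the only form of the GATA motif searched and found in 11.2% of windows, has no match there. Another form, TGATAA, was not searched and stands in lower case in the printed Hba-x window. No match says only that these letters are not in the window.

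Cartilage genes rose nearly throughout. Of 21 measured, 19 rose and none fell, with a median difference of 1.92. Matn1, which encodes the cartilage matrix protein matrilin and whose promoter window is printed above, had 11.31, 11.18 and 11.25 at E13.5, against 4.56, 5.03 and 5.06 at E12.5 (difference 6.36 ± 0.32, adjusted p = 6.64e-21). All E13.5 arrays lay far above all E12.5 arrays. Hapln1, the link protein that ties aggrecan to hyaluronan, had 10.11, 9.94 and 9.99 at E13.5, against 6.02, 5.46 and 6.18 at E12.5. Acan, the gene of aggrecan itself, had 8.58, 8.61 and 8.502 at E13.5, against 5.31, 5.33 and 4.996 at E12.5. The differences were 4.13 ± 0.27 for Hapln1 and 3.35 ± 0.25 for Acan. Matn4 rose by 3.34, Col9a3 by 2.98, Cnmd by 2.83 and Col11a1 by 1.92. Col2a1, the main cartilage collagen, was bright at both ages, with 12.19, 12.28 and 12.21 at E13.5 and 10.33, 10.26 and 10.33 at E12.5. Sox9, the transcription factor that starts the chondrocyte program, rose by only 0.47 ± 0.14, and lost its call when arrays were centred (adjusted p = 0.0552). The 2 genes that were not called were Nkx3-2 and Ucma, at -0.24 and 0.21. Outside the list, Cytl1, a secreted protein of chondrocytes, rose by 3.61. C1qtnf3, a secreted protein of growing cartilage, was at least 14-fold higher, and Scin, which encodes the actin-severing protein scinderin, was at least 12.4-fold higher.

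**Figure D1:**
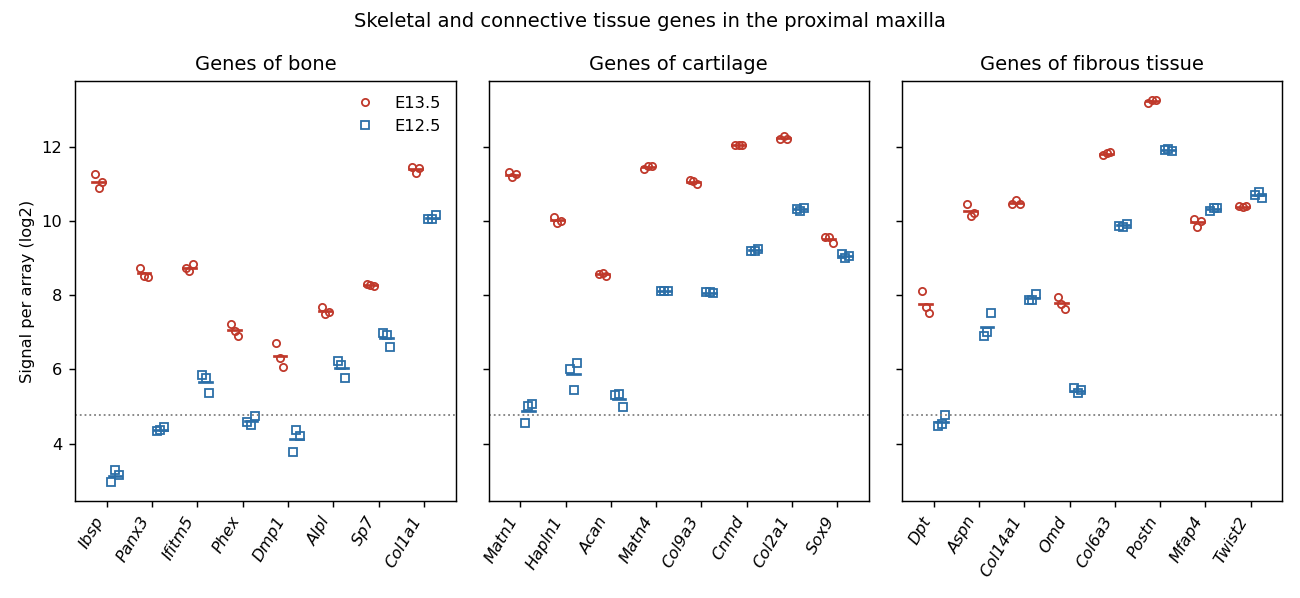
Log2 signal of bone, cartilage and fibrous tissue genes in the proximal maxilla, with 1 point per array, bars at group means, E13.5 left of E12.5, and a dotted line at 4.78. The E12.5 arrays of Ibsp, Panx3, Phex, Dmp1 and Dpt have means below the line, while Mfap4 and Twist2 are lower at E13.5.

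Fibrous connective tissue changed in the same day, and all 20 genes of its list were called, 17 of them higher and 3 lower. The median difference was 1.22. Dpt, which encodes dermatopontin of the dermal matrix, had 8.12, 7.67 and 7.51 at E13.5, against 4.47, 4.54 and 4.78 at E12.5, and was at least 7.92-fold higher. Aspn, the collagen-binding proteoglycan asporin, had 10.46, 10.12 and 10.22 at E13.5, against 6.91, 6.996 and 7.52 at E12.5 (difference 3.13 ± 0.36). Col14a1 rose by 2.56, the proteoglycan gene Omd by 2.34, Col6a3 by 1.93 and Postn by 1.32. Abi3bp, a matrix protein gene outside the list, was at least 7.58-fold higher. The 3 genes that fell were the microfibril gene Mfap4 (-0.36), the transcription factor gene Twist2 (-0.30) and Pi16 (-0.43). The fall of Pi16 lost its call in 4 of the 6 fits that left out an array. Of 8 tendon genes 5 rose and none fell, among them Col12a1 by 2.10 and Fmod by 1.499. Scx, the tendon transcription factor gene, had a difference of -0.08 and was not called (adjusted p = 0.673).

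Skeletal muscle genes also rose. Of 25 measured, 19 rose and none fell, with a median difference of 1.03 and a range of 0.28 to 1.90. Myh8, a perinatal myosin heavy chain, had 9.19, 9.07 and 9.001 at E13.5, against 7.26, 7.03 and 7.28 at E12.5. Tnnt3, fast troponin T, rose by 1.77 ± 0.21. Myog, which drives myoblasts into differentiation, rose by 0.82 ± 0.16. Myf5, an early myoblast factor, had a difference of 0.43 and was not called.

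Surface epithelium genes rose, 16 of 18 measured with none lower and a median of 1.01. Epcam, an adhesion protein of simple epithelia, had 10.51, 10.53 and 10.48 at E13.5, against 8.71, 8.72 and 8.76 at E12.5 (difference 1.77 ± 0.08). Krt8, a keratin of simple epithelia, rose by 1.88 ± 0.13, and Cldn6, a tight junction gene of embryonic epithelia, by 1.77 ± 0.14. The distal piece had smaller changes, 0.75 for Epcam, 0.92 for Krt8 and -0.06 for Cldn6. All 3 differences between the pieces were called, at 1.02, 0.96 and 1.83. Of the 18 genes 14 rose distally (18.9% of all genes). The difference was called in 7 of the 18, all with the higher change proximally (11.2% of all genes). Krtdap, a gene of stratifying epidermis, was below 4.78 at E12.5 and at least 2.61-fold higher at E13.5. Of the 11 genes of periderm and stratification measured, 4 rose proximally (22.2% of all genes) and 8 distally. The proximal change was called the lower one in 4 of them (7.33% of all genes) and the higher one in 0. Foxa1, a transcription factor of endoderm-derived and airway epithelium, was at least 4.93-fold higher.

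Hedgehog signalling is read from genes that its Gli factors switch on. The 5 targets measured (of 6 listed) all rose, with a median of 0.97. Hhip, a membrane protein that binds and restrains the ligand, had 7.39, 7.21 and 7.31 at E13.5, against 4.66, 4.75 and 5.15 at E12.5 (difference 2.45 ± 0.16). Ptch1, the receptor, had 11.34, 11.27 and 11.27 at E13.5, against 10.33, 10.36 and 10.57 at E12.5 (difference 0.87 ± 0.08). The transcription factor gene Gli1 rose by 0.97, Foxf2 by 1.71 and Foxf1 by 0.82. Averaged over all probe sets of the gene, the rises were 1.41 for Hhip, 0.21 for Ptch1, 0.84 for Foxf2 and 0.42 for Foxf1. Groups did not overlap for any of the 5. The ligand gene Shh rose by 0.96 ± 0.22. In the distal piece 3 of the 5 targets rose (18.9% of all genes rose there and 16.6% fell), and the proximal change exceeded the distal one in all 5, at an interaction called in 11.2% of all genes in that direction.

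Regulators of palate growth rose in the proximal piece, 14 of 23 measured, while 2 fell. The median difference was 0.56. Fgf7, a growth factor made by mesenchyme for epithelium, had 8.63, 8.43 and 8.33 at E13.5, against 6.42, 6.31 and 6.48 at E12.5. Tgfbr2, a receptor needed for palate formation, rose by 1.02 and Pax9 by 0.98. Tbx22, a gene whose mutation causes cleft palate in humans, rose by 0.70 ± 0.22. In the distal piece 5 of the 23 rose (18.9% of all genes) and 8 fell (16.6% of all genes). The proximal change exceeded the distal one in 15 genes (11.2% of all genes) and fell short in none (7.33% of all genes). Barx1, a homeobox gene of the molar-forming mesenchyme, rose by 0.64 in the proximal piece and fell by 1.01 in the distal piece. The 2 that fell proximally were Tbx2 (-0.36) and Tbx3 (-0.53), both transcriptional repressors, and they fell further in the distal piece, by 1.36 and 0.84.

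Other signalling groups moved less as a whole. Counts in this paragraph stand beside 22.2% of all genes that rose and 13.7% that fell. Of 10 retinoic acid genes 4 rose and 3 fell. Aldh1a3, which makes retinoic acid, had 8.46, 8.29 and 8.25 at E13.5, against 5.96, 5.98 and 6.54 at E12.5 (difference 2.17 ± 0.25). Its other 2 probe sets rose by less, with 0.83 for one and 0.37 for the other, which was not called (adjusted p = 0.0551 in the limma fit). Rarb, a receptor gene that retinoic acid induces, rose by 0.56, and the binding protein gene Crabp2 fell by 0.31. In the distal piece Aldh1a3 had a difference of 0.21 and Rarb fell by 0.52. Of 9 Wnt targets 3 rose and 2 fell, among them the secreted inhibitor Wif1 at 1.30 and the feedback gene Axin2 at -0.29. The Wnt split depended on scaling, with 2 higher and 4 lower after centring and 2 higher and 3 lower after quantile normalization. Of 24 transcription factors of facial mesenchyme 3 rose and 6 fell, or 1 and 9 after centring and 3 and 7 after quantile normalization. Gsc, a homeobox gene of the arch, rose by 1.31 ± 0.22. Tfap2a, which acts in neural crest and ectoderm, fell by 1.03 ± 0.08 and Pou3f3 by 0.75 ± 0.14. Of 21 tooth genes 10 rose and 3 fell, with Tbx1 at 1.23 ± 0.13.

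**Figure D2:**
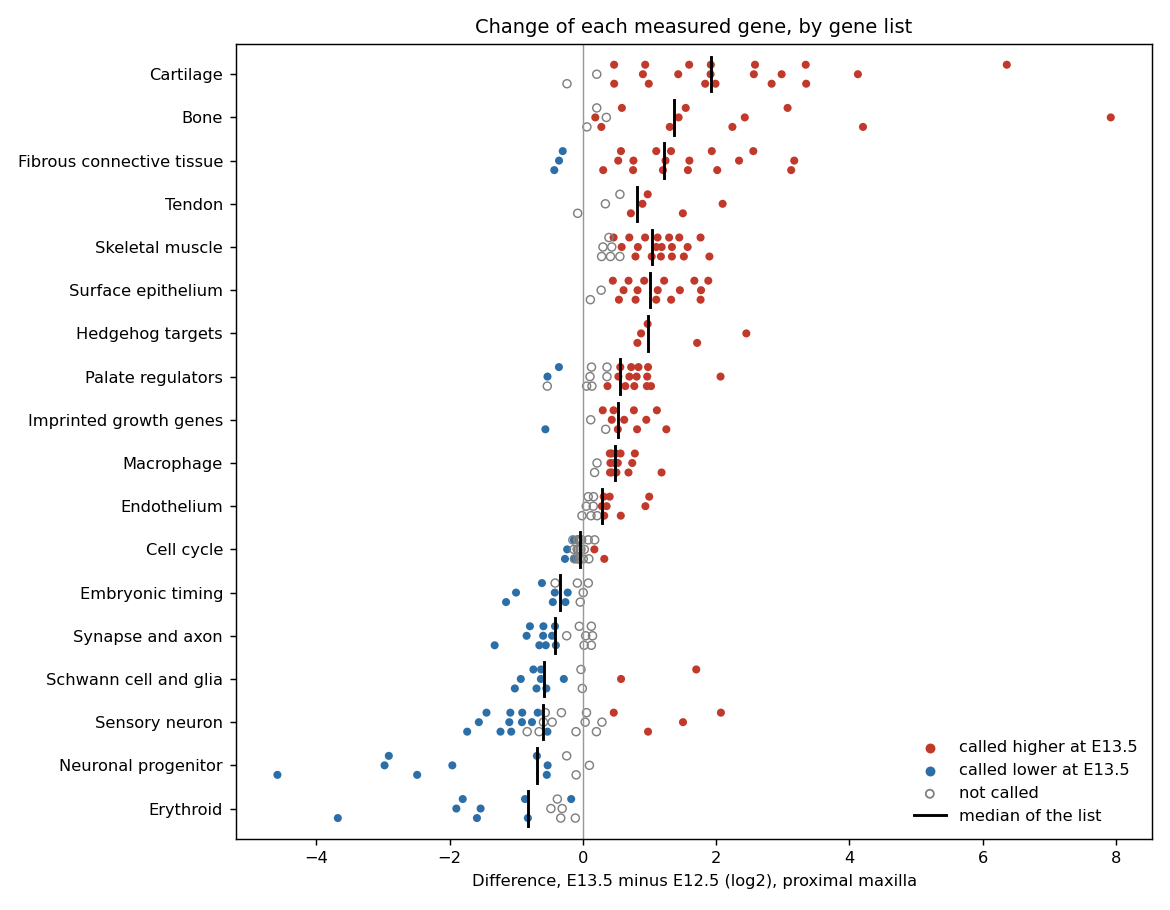
Difference E13.5 minus E12.5 (log2) in the proximal maxilla for each measured gene of 18 lists, filled where called and open where not, with a black bar at the list median. Cartilage, bone and muscle lie to the right of 0, cell cycle genes lie near 0, and neuronal progenitor and erythroid genes lie to the left.

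Genes of embryonic red blood cells fell. Primitive red cells from the yolk sac carry embryonic globins and are replaced by definitive cells from the fetal liver. Of 13 erythroid genes measured (of 18 listed), none rose and 8 fell, with a median difference of -0.83. Hbb-bh1, an embryonic beta-like globin, had 9.78, 9.65 and 9.57 at E13.5, against 13.37, 13.34 and 13.33 at E12.5 (difference -3.68 ± 0.10, adjusted p = 4.02e-32). Hba-x, the embryonic alpha-like globin whose window is printed above, had 12.12, 12.14 and 12.14 at E13.5, against 13.65, 13.69 and 13.65 at E12.5 (difference -1.54 ± 0.10). Neither gene had overlapping groups. Hbb-y, another embryonic beta-like globin, fell by only 0.18, from signals near the top of the array's range. The other embryonic globins were still lower at E14.5. From E12.5 through E13.5 to E14.5 mean Hbb-bh1 was 13.35, 9.67 and 7.66, and mean Hba-x was 13.67, 12.13 and 10.63.

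Slc4a1, the anion exchanger of the red cell membrane, had 7.84, 7.61 and 7.57 at E13.5, against 9.46, 9.35 and 9.63 at E12.5. Hemgn, a nuclear protein of blood progenitors, was below 4.78 at E13.5 and at least 2.72-fold lower. Rhag, a Rhesus-associated glycoprotein, was at least 1.59-fold lower, and the blood group genes Kel and Rhd fell by 1.65 and 1.18. Klf1, the erythroid transcription factor, fell by 0.83. Ppbp, a chemokine gene of platelets, fell by 1.18. The distal piece showed 9 of the 13 erythroid genes lower and none higher, with a median of -1.08, and the difference between the pieces was called for none of the 13 (18.6% of all genes were called). Hba-a1, an adult globin, had values of 4.39 to 4.68 in all 6 arrays with the probe set used, so its change could not be read.

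Macrophage genes rose, 14 of 16 with none lower, by a median of 0.48. Mrc1, the mannose receptor of tissue macrophages, had 8.95, 8.87 and 8.90 at E13.5, against 7.66, 7.67 and 7.85 at E12.5, and Lyz2 rose by 0.74. Of 8 mast cell genes 2 rose and 6 were not called, near the share over all genes (22.2% rose), with a median of 0.07. The 2 were the granule protease genes Cma1, at least 4.16-fold higher, and Cpa3, by 1.33 ± 0.20. Of 15 endothelial genes 8 rose and none fell, with Erg, an endothelial transcription factor, at 0.99 ± 0.12. Of 11 pericyte and smooth muscle genes 6 rose and none fell, with the pericyte gene Rgs5 at 1.402 ± 0.16. This count depended on scaling, with 3 higher and 1 lower after centring.

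Genes of newborn neurons fell. Of 11 neuronal progenitor genes measured (of 12 listed), 8 fell and none rose, with a median of -0.69. Neurod4, a proneural transcription factor, had 4.08, 4.03 and 3.74 at E13.5, against 8.47, 8.43 and 8.71 at E12.5, and was lower by at least 3.76 on the log2 scale (fitted difference -4.59 ± 0.25, adjusted p = 9.17e-20). Its E13.5 arrays all lay below 4.78. Insm1, a zinc-finger factor of cells leaving the progenitor state, had 7.25, 7.01 and 7.10 at E13.5, against 10.04, 9.84 and 10.43 at E12.5. Neurod1, which drives neuronal differentiation, had 8.96, 9.03 and 8.76 at E13.5, against 11.93, 11.76 and 11.80 at E12.5. The basic helix-loop-helix genes Nhlh2 and Nhlh1 fell by 2.49 ± 0.38 and 1.96 ± 0.20, and Hes6, a promoter of neurogenesis, by 0.69. In every one of these the groups did not overlap.

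Genes of mature sensory neurons went in both directions. Of 27 measured, 12 fell and 4 rose, with a median of -0.59. Prph, the intermediate filament peripherin of peripheral neurons, was bright at both ages, with 12.27, 12.37 and 12.29 at E13.5 and 12.43, 12.42 and 12.39 at E12.5, and was not called (adjusted p = 0.77). Isl1, a homeobox gene of sensory neurons, had 11.86, 11.94 and 11.87 at E13.5, against 12.97, 12.999 and 13.02 at E12.5 (difference -1.11 ± 0.15). The sensory transcription factor gene Pou4f1 fell by 1.74, the RNA-binding protein gene Elavl3 by 1.56, Runx3 by 1.45 and Tubb3 by 1.09. The synaptic gene Snap25 had a difference of -0.66 and was not called. Ret, the receptor of glial-derived neurotrophic factors, went the other way, with 10.63, 10.29 and 10.40 at E13.5, against 8.89, 8.79 and 9.13 at E12.5. The neurotrophin receptor gene Ntrk3 rose by 2.07 with the probe set used, but 2 of its other probe sets fell, by 0.59 and 1.004, and the mean of its probe sets was not called (0.17, adjusted p = 0.0581). Ntrk2 was also among the 4 that rose, and other probe sets of it fell, as given under the other observations. Of 17 synapse and axon genes 10 fell and none rose. Of 12 Schwann cell and glia genes 8 fell, among them Sox10 by 0.93 and Fabp7 by 1.02, while S100b rose by 1.70 ± 0.18. Of 11 Notch genes 4 fell, including the target Heyl by 0.78, and 2 rose.

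Several genes outside these lists were among the largest falls. Ppp1r17, a phosphatase inhibitor known from cerebellar neurons, had 9.25, 8.86 and 8.95 at E13.5, against 11.59, 11.69 and 11.70 at E12.5. Mreg (melanoregulin), Ppp1r14a (an inhibitor of myosin phosphatase), Kcnj12 (a potassium channel) and Prmt8 (a brain arginine methyltransferase) fell by 2.57, 2.71, 2.25 and 2.21. Prg2, a granule protein of eosinophils, was at least 4.03-fold lower.

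In the distal maxilla the same day brought the opposite for many of these genes. There 22 of the 27 sensory neuron genes rose and 1 fell, with a median of 1.51. The proximal change was lower than the distal one, by the test of the difference, in 21 of the 27 and higher in none (7.33% of all genes were called lower in that test). Prph, of this list, rose by 4.72 ± 0.23 in the distal piece, and its difference between the pieces was -4.83, or -1.42 with the mean of its probe sets. For the progenitor gene Nhlh2 the difference between the pieces was -5.03. Neurod4 had means of 3.57 at E13.5 and 3.43 at E12.5 distally, below 4.78 at both ages, so its fall has no distal counterpart to measure. Slc17a6, the vesicular glutamate transporter of excitatory neurons, fell by 1.08 proximally and had distal means of 7.32 at E13.5 and 3.99 at E12.5. Ppp1r1c, a phosphatase inhibitor, fell by 1.56 proximally and rose by 2.99 distally.

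**Figure D3:**
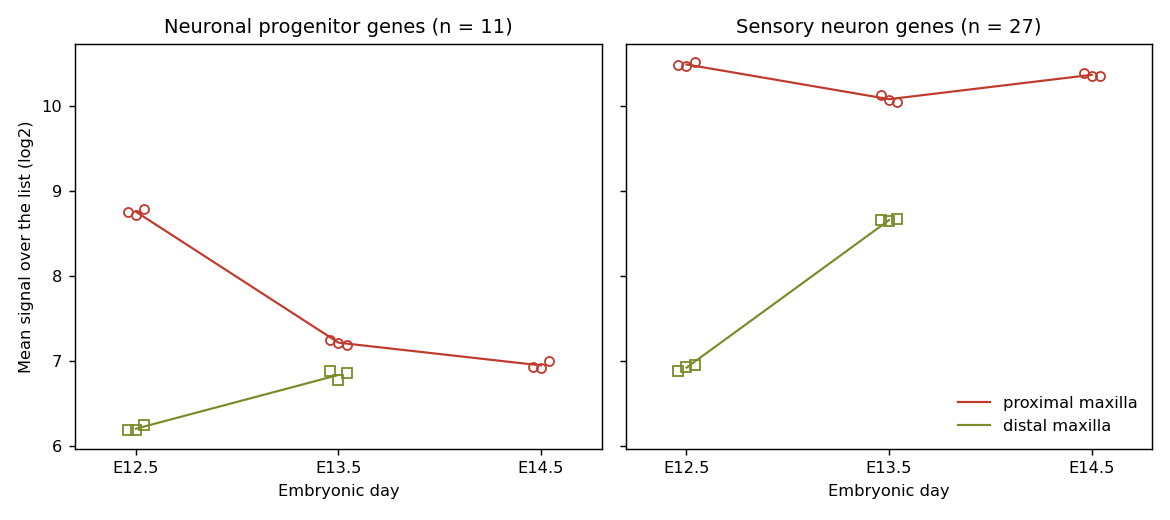
Mean log2 signal per array over the 11 neuronal progenitor genes and the 27 sensory neuron genes, in proximal maxilla from E12.5 to E14.5 and in distal maxilla from E12.5 to E13.5. Progenitor genes in the proximal piece stand lower at E13.5 than at E12.5 and lower again at E14.5. Sensory neuron genes in the proximal piece lie above the distal level at E12.5 and at E13.5.

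Averaged over the list, the proximal arrays of E12.5 gave 8.76, 8.72 and 8.79 for progenitor genes, those of E13.5 gave 7.26, 7.21 and 7.19, and those of E14.5 gave 6.93, 6.92 and 7.002. For sensory neuron genes the E12.5 arrays gave 10.49, 10.47 and 10.51, the E13.5 arrays 10.13, 10.07 and 10.05, and the E14.5 arrays 10.39, 10.35 and 10.36. At E14.5 the sensory list thus stood between its levels at the earlier ages, while the progenitor list stood at its lowest. The distal arrays ran from 8.64 to 8.68 for sensory neuron genes at E13.5 and from 6.88 to 6.96 at E12.5.

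Most genes with a large fall were genes of the proximal end. Of the 124 genes at least 2-fold lower at E13.5, 90 (72.6%) were called at least 2-fold higher in the proximal than in the distal maxilla at E11.5, on arrays outside the comparison, against 3.31% of all genes. At E14.5 the same held for 52 (41.9%), against 3.23% of all genes. Among all 2486 genes that fell the shares were smaller, with 335 such genes at E11.5 and 280 (11.3%) at E14.5. Of the 440 genes at least 2-fold higher at E13.5, 10% were at least 2-fold higher proximally at E11.5. Taken from the other side, 320 genes were at least 2-fold higher proximally at both E11.5 and E14.5. Over the day 217 of them fell in the proximal piece and 18 rose, with a median of -0.57. In the distal piece 260 of them rose and 6 fell, with a median of 0.81. How the cut between the pieces was placed at each age is not given in the labels, and its part in these values was not tested.

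Genes of embryonic growth also changed. Of 13 imprinted growth genes 10 rose and 1 fell. The maternally expressed RNA gene Meg3 rose by 1.25 ± 0.18, Igf2r by 0.95, the zinc-finger gene Plagl1 by 0.81, Peg3 by 0.76 and the growth factor gene Igf2 by 0.62 ± 0.04, and Nnat fell by 0.56. Of 12 genes of early embryonic timing 7 fell and none rose, a group whose members hold cells in an early state. Mycn had 10.22, 10.24 and 10.12 at E13.5, against 11.21, 11.15 and 11.23 at E12.5. Trim71, a target of the let-7 microRNA, fell by 1.15 ± 0.19, and the RNA-binding protein genes Igf2bp1 and Igf2bp3 by 0.62 and 0.42.

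Few cell cycle genes were called in the proximal piece. Of 25 measured, 2 rose and 4 fell, against 35.9% of all genes called in either direction, with a median of -0.05. Cdk1, the mitotic kinase, rose by 0.32 and Plk1 fell by 0.27, while Top2a had a difference of -0.04 and was not called. The direction depended on scaling, with 2 higher and 9 lower after quantile normalization and 1 higher and 18 lower after centring. In the distal piece 23 of the 25 fell (16.6% of all genes), with a median of -0.38. The proximal change exceeded the distal one in 22 (11.2% of all genes). The immediate early gene Egr1 rose by 1.49 ± 0.13 in the proximal piece and by 1.39 in the distal piece.

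A small set of genes rose by more in the proximal than in the distal piece, and the difference was called for Oc90, Pomc, Cga and Irs4. Oc90, the main protein of inner ear otoconia, had 10.31, 10.33 and 10.28 at E13.5, against 6.01, 6.00 and 5.98 at E12.5 (difference 4.31 ± 0.24), with distal means of 5.79 and 5.87 at these ages. Tectb, a protein of the tectorial membrane of the cochlea, was at least 5.32-fold higher. Six6, a homeobox gene of eye and pituitary, had 7.64, 7.53 and 7.44 at E13.5, against 4.12, 4.22 and 4.37 at E12.5, and was at least 6.76-fold higher. Both Tectb and Six6 had distal means under 4.78 at the 2 ages, so their distal change could not be read. The pituitary hormone genes Pomc and Cga rose by 2.04 ± 0.09 and 1.34 ± 0.17, while Cga fell distally by 1.68. Irs4, an insulin receptor substrate, rose by 2.02 proximally, or 1.01 with the mean of its probe sets, and fell by 1.43 distally. In the other direction Cryba1, a lens crystallin, had 4.88, 5.03 and 4.97 at E13.5, against 8.19, 8.20 and 8.34 at E12.5 (difference -3.28 ± 0.20). Its distal means were 4.42 at E13.5 and 4.37 at E12.5, both under 4.78. Of 13 forebrain, eye and lens genes measured, 1 rose, 2 fell and 10 were not called, with a median of -0.03. Over all genes 22.2% rose and 13.7% fell. The samples are whole pieces, and whether neighbouring tissue was included at one age was not tested. Prap1, a proline-rich acidic protein, rose by 4.18 ± 0.43, and in age order from E12.5 to E14.5 its means were 5.47, 9.65 and 5.17.

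The change over the day was partly shared with the distal piece. Genes called higher in both pieces numbered 2134 (11.7%) and lower in both 1092 (6%), while 501 (2.75%) were called in opposite directions. Of the genes that rose proximally 52.7% also rose distally, and of those that fell 43.9% also fell. Of the genes that rose distally 62.2% rose proximally. The difference between the pieces was called for 3375 genes. At 2-fold or more it was called lower in the proximal piece for 355 (1.95%) and higher for 65 (0.357%). For bone genes it was called in 1 gene in each direction, and for cartilage genes in 4, all of them with the larger rise in the proximal piece. Smpd3, not called proximally, was the bone gene with the larger distal rise, at 2.34.

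**Figure D4:**
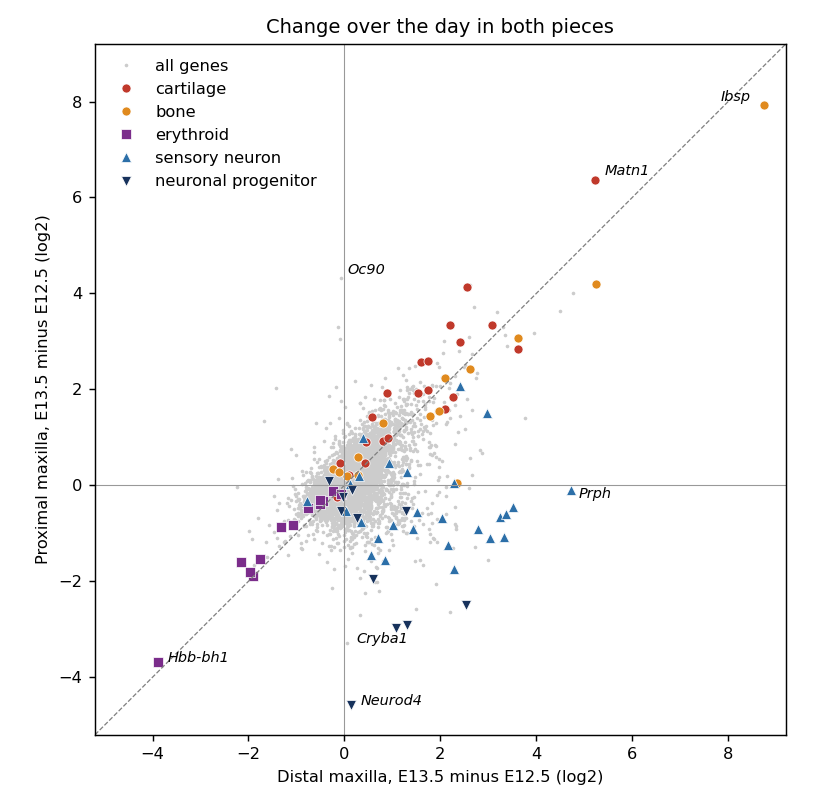
Difference E13.5 minus E12.5 (log2) in the proximal maxilla (vertical) against that in the distal maxilla (horizontal) for 18193 genes, with 5 lists in colour and a dashed line at equal change. Bone and cartilage genes lie near the line in the upper right, erythroid genes near it in the lower left, and neuronal genes to the right of and below it.

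The levels at E14.5 place the change in a longer course. They share the E13.5 arrays with the comparison above and are given only side by side. In age order from E12.5 to E14.5 mean Ibsp was 3.13, 11.06 and 12.63, and mean Dmp1 was 4.13, 6.37 and 9.27. Mean Matn1 was 4.88, 11.24 and 11.64, and mean Matn4 was 8.11, 11.45 and 10.90. From E13.5 to E14.5 the median over bone genes was a further 0.69, and over cartilage genes 0.08. Mean Oc90 was 6.00, 10.31 and 9.73, and mean Six6 was 4.24, 7.54 and 5.35.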

How the data were processed

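RNA from 60 arrays was measured on Affymetrix mouse arrays. The authors deposited log2 signals made with RMA, per the submitters' processing notes, a method that removes background, equalizes the arrays and merges the probes of a set. The RMA version is not stated. No further normalization was applied to the values, which ran from 2.542 to 14.812, and no 2 arrays shared more than 0.408% of values.

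Of 45101 probe sets, 64 controls were left out. The platform annotation gave 34945 a single symbol, 932 several and 9160 none, and only the first kind was used. Of these, 34741 matched a RefSeq gene identifier and 0 symbols changed. Of the 18193 genes, 9010 had over 1 probe set, each represented by its probe set of highest mean signal.

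A limma 3.58.1 fit (R 4.3.3) gave a mean to each of the 20 groups of 3 arrays, leaving 40 residual degrees of freedom, and two-sided contrasts used eBayes with an intensity trend. On simulated data with 200 of 18193 genes changed in this comparison, 79% of changes of 0.5 and 97% of changes of 1 were recovered, with 7 false calls. The simulated noise was independent and had the spreads of the same fit. These figures therefore do not give the rate of false calls in the real arrays.

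The members and the 38 gene lists were chosen with earlier results of these data known, and no list was tested as a set. Named genes were the 12 called genes per direction with the largest difference, the 10 per direction called alike in both pieces, the 6 per direction with the largest difference between the pieces, and up to 6 members per list. The first 2 kinds needed arrays that do not overlap, and all 3 needed a mean of at least log2 6 in the higher group, no predicted gene model and no sex linkage. Uncalled list members and those given as exceptions were named after their values were seen. Alternatives were another normalization or centring, a filter on dim genes, other probe set rules, fewer arrays, other estimates of spread, the replicate number as a block, leaving out each array, and a 2-fold limit.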

Additional observations from a re-analysis of the deposited data

Results flagged for a closer look

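In all, 45 genes were named for the size of their change or of its difference between the pieces. Of these, 24 changed differently in the proximal and the distal piece by the limma test of the difference (18.6% of all genes were called). The 6 per direction with the largest called difference were named by that same test, so their part of the count was fixed by the choice. Values are the proximal minus the distal change on the log2 scale. The proximal change was the higher one for Oc90 (4.39), Irs4 (3.46), Six6 (3.44), Tectb (3.14), Cga (3.03), Pomc (2.21), Hapln1 (1.57), Acan (1.14) and Pantr1 (0.81). Pantr1, a noncoding RNA gene beside Pou3f3, fell in both pieces, by 1.11 proximally and 1.92 distally. Trib3 and Sst, also among the 45, fell by 1.49 and 1.26 proximally and by 1.61 and 1.37 distally. For both, the difference between the pieces was not called.

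The proximal change was the lower one for Nhlh2 (-5.03), Ppp1r17 (-4.85), Prph (-4.83), Neurod4 (-4.73), Ppp1r1c (-4.55), Slc17a6 (-4.40), Neurod1 (-4.22), Mreg (-4.07), Insm1 (-4.05), Cryba1 (-3.33), Ppp1r14a (-3.04), Prmt8 (-2.93), Kcnj12 (-2.68), Prg2 (-1.87) and Dpt (-0.79). Neurod1, Insm1 and Nhlh2 fell proximally and rose distally.

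For 9 of these genes at least 1 of the 4 group means lay under 4.78, so the fitted difference is not exact. With array values under 4.78 raised to it, a setting chosen after seeing the data, the difference was 2.76 for Six6, 2.41 for Tectb, -3.76 for Neurod4, -3.28 for Cryba1, -4.71 for Ppp1r17, -2.54 for Kcnj12, -2.01 for Prg2, -3.61 for Slc17a6 and -0.96 for Dpt. In Six6, Tectb, Neurod4, Cryba1 and Prg2 both distal means lay under 4.78, so their distal change could not be read. The proximal rise of Dpt is only known to be at least 2.99, so whether it was smaller than the distal rise could not be read either.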

How the results depend on the processing

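The 57 results for genes named by size kept their direction and call in 1038 of 1041 trials. The 3 others were trials in which Prph became called lower. Of 87 further named genes, over 1478 trials, 10 trials lost a call, 7 gained one and 0 reversed. Losses were Sox9 on centring, Axin2 and Ntrk3 with the mean of probe sets, and Pi16 in 7 trials. Snap25 was called in 6 trials and Top2a on centring.

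Averaged over all probe sets of the gene, 27 of 140 called values of named genes were over 1.5 times smaller, 25 of them proximal changes, with no change of direction. These were Ntrk3 (0.17), Ptch1 (0.21), Tgfbr2 (0.32), Foxf1 (0.42), Peg3 (0.46), Shh (0.46), Erg (0.48), Pax9 (0.58), Meg3 (0.67), Col12a1 (0.83), Foxf2 (0.84), Ret (0.89), Fmod (0.91), Irs4 (1.01), Epcam (1.09), Aldh1a3 (1.13), Phex (1.14), Hhip (1.41), Panx3 (1.46), Col14a1 (1.57), Sgms2 (2.28), Pi16 (-0.23), Sox10 (-0.50), Mycn (-0.62) and Runx3 (-0.88), and the differences between pieces of Prph (-1.42) and Irs4 (1.74). The cause was not tested.

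The count of called genes was 6533 for the proximal change, 3375 for the difference between pieces, 6458 for the distal change and 3052 for E14.5 minus E13.5. Leaving out each array gave 5600 to 6297, 2726 to 3256, 5560 to 5648 and 1954 to 2828. The value of 1954 came without proximal E14.5 replicate 3. With a 2-fold limit the counts were 564, 420, 508 and 82. With all probe sets as units, which tests more features, 10260 were called for the proximal and 10364 for the distal change. Array quality weights gave 6232 for the difference between pieces and 7216 for E14.5 minus E13.5, and the cause was not tested.

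The replicate numbers gave no sign of pairing the arrays. In their deviations from the group means, same-numbered proximal arrays correlated at -0.358, 0.195 and -0.493. Differently numbered ones ran from -0.466 to 0.597, the latter for E13.5 replicate 1 with E12.5 replicate 3. Deviations from a mean of 3 arrays are tied to each other, so these values are not independent. The replicate block gave 6513, 3337, 6435 and 3031 called genes in the same order, and 5548 for the proximal change and 4637 for the difference between pieces when only the arrays compared were fitted. The share of genes at least 2-fold lower that were proximal genes at E11.5 stayed between 67.25% and 78.24%. Genes near 4.78 in both groups cannot be read.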

Other observations

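Genes of the pituitary and of the inner ear were listed after the values of Six6 and Oc90 had been seen, so they carry no test, and the genes that prompted the lists are not counted here. Lhx3, a homeobox gene of the pituitary and motor neurons, had 6.34, 6.50 and 6.58 at E13.5, against 5.42, 5.50 and 5.07 at E12.5. Tshb, the thyrotropin beta chain, had 6.35, 6.44 and 6.07 at E13.5, against 5.42, 5.53 and 5.18 at E12.5. Pitx1 was also higher with no overlap between the arrays of the 2 ages. The arrays overlapped for Lhx4, and Hesx1 lay under 4.78 at both ages. Of the inner ear genes, Tecta had 7.19, 6.78 and 6.59 at E13.5, against 5.43, 5.61 and 5.60 at E12.5. Otog and Gata3 were also higher with no overlap, and the arrays overlapped for Otoa. Mean Lhx3 was 5.26 at E13.5 and 5.28 at E12.5 in the distal piece, and mean Tecta 5.30 and 5.25. Gata3 and Pitx1 were higher in the distal than in the proximal piece at both ages. Mean Gata3 was 7.56 at E13.5 and 7.95 at E12.5 distally, against 7.49 and 6.29 proximally. For Pitx1 the distal means were 8.76 and 8.57, against 8.49 and 7.92 proximally. Over all genes 27.2% were higher at E13.5 with no overlap in the proximal piece.

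Transcripts of both sexes were present in all 6 arrays. The X-inactivation RNA Xist had 11.60, 11.67 and 11.62 at E13.5, against 10.35, 10.36 and 10.28 at E12.5, with a difference of 1.30 that was not called over the 60 arrays (adjusted p = 0.199). The Y-linked gene Uty had 7.25, 7.02 and 6.76 at E13.5, against 7.25, 7.29 and 7.74 at E12.5. The part of embryo sex in the values above was not tested.

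Ntrk2, the receptor of brain-derived neurotrophic factor, rose by 0.46 with the probe set used, but 3 of its other probe sets fell, by 0.62, 1.37 and 1.39.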
